A study of Mus musculus with 6 samples.

Results

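The heavy chain (IgH) repertoires of naïve follicular (FO) B cells from 1 iB-μMT mouse and 1 B6 mouse were compared. All clonotypes of both heavy chain tables were used, 7794 from the iB-μMT mouse plus 6781 from the B6 mouse, together 14575 of the 18182 clonotypes of the 6 libraries of the series. Clonotypes are told apart by the nucleotides of CDR3, the loop of the V domain that spans the joints between the V, D and J gene segments.

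The iB-μMT mouse was a μMT recipient, a B cell-deficient strain (B6.129S2-Ighm tm1Cgn/J) in which the membrane form of the μ chain is disrupted. It was irradiated, received hematopoietic progenitors (iHPC) made from GFP-carrying iRunx1-Hoxa9-Lhx2 (iR9X2) embryonic stem cells of C57BL/6 background, and was kept on doxycycline, which switches on the 3 exogenous transcription factors. The spleen was taken at week 4 after transplantation, and a C57BL/6 mouse without transplantation was the control. FO B cells were sorted from both spleens by surface markers that included IgD, IgM, CD23 and CD21, and GFP is not named in this gate. The iR9X2 cells came from a single engineered line.

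An IgH gene is assembled in progenitor B cells by joining a D to a J segment and then a V segment to the DJ joint. The RAG nuclease cuts beside each segment, nucleotides are trimmed from the opened ends, short palindromic (P) nucleotides can remain from hairpin opening, and terminal transferase (TdT) adds nucleotides without a template. Joining can also use short stretches of bases that both ends share, which is common where TdT adds nothing, as in fetal B cells. The D genes of the larger mouse families code for tyrosine in the reading frame that most antibodies use.

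Read totals were 909806 (iB-μMT mouse) and 1383617 (B6 mouse). The median was 96 reads per clonotype in the iB-μMT mouse versus 184 in the B6 mouse. The best C gene hit was IGHM for 7644 of 7650 clonotypes with a C hit in the iB-μMT mouse and for 6684 of 6688 in the B6 mouse. No clonotype had an IGHD hit, which allows a share of up to 0.0392% and 0.0449%, respectively. The sources used here do not name the constant region primers, so this bound holds only if IGHD transcripts could be amplified. With 1 library per mouse there was no replicate check and no test was made. All differences are between these 2 libraries and not between the conditions. Intervals are 95% intervals over clonotypes and cover counting error only, since the sources describe no molecular identifiers and amplified reads are not separate molecules.

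The D and J segments that the results turn on are shown here as the alignments of both libraries gave them, 5′ to 3′ on the coding strand. Capitals mark the codons of the frame richest in tyrosine codons.
IGHD1-1: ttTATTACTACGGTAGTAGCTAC
IGHD2-3: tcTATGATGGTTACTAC
IGHD2-8: tcTACTATGGTAACTAC
IGHD4-1: ctaactgggac
IGHJ1: ctactggtacttcgatgtctgg
IGHJ2: actactttgactactgg
IGHJ3: cctggtttgcttactgg
IGHJ4: attactatgctatggactactgg
By the RefSeq annotation of GRCm38.p6, IGHD1-1 lies at chr12:113482170-113482192, which is 52336 bases from IGHJ1. IGHD2-3 lies at chr12:113475400-113475416 and IGHD2-8 at chr12:113450851-113450867. IGHD4-1 lies at chr12:113430528-113430538, 694 bases from IGHJ1 and nearest to the J genes of all D genes. These segments lie in coding exons of the D and J genes, and the locus is read from the minus strand. The J sequences are printed up to the codon of the conserved tryptophan, and the J exons run on beyond it. IGHD4-1 has no tyrosine codon in any frame, so it was left out of the share of the tyrosine frame.

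The loop of the iB-μMT mouse was richer in tyrosine and in aromatic residues, and poorer in glycine, serine, valine and proline. The loop was taken as the residues between the conserved cysteine and the conserved tryptophan of CDR3, in clonotypes without a stop codon (7741 in the iB-μMT mouse versus 6631 in the B6 mouse). Tyrosine made up 22.6% ± 9.63 (SD over clonotypes) of loop residues in the iB-μMT mouse versus 19.9% ± 9.11 in the B6 mouse. Tyrosine thus differed by 2.68 percentage points (95% interval 2.37 to 2.99). Phenylalanine, tryptophan and tyrosine together made up 32.0% and 28.2%, respectively.

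Among the 20 amino acids, the interval of the difference lay above 0 for 7 and below 0 for 11. Aspartate was 12.2% in the iB-μMT mouse versus 10.95% in the B6 mouse, asparagine 2.61% and 1.78%, and tryptophan 3.38% and 2.56%. Alanine (13.6% and 13.2%), phenylalanine (6.02% and 5.69%) and methionine (2.65% and 2.36%) were also higher in the iB-μMT mouse. Glycine was 8.39% in the iB-μMT mouse versus 9.59% in the B6 mouse, serine 5.02% and 6.14%, valine 2.94% and 3.78%, and proline 1.34% and 2.16%. Arginine (9.41% and 9.86%), lysine (0.648% and 0.808%), glutamate (1.44% and 2.04%), threonine (2.85% and 3.36%), leucine (2.47% and 2.89%) and isoleucine (0.781% and 1.07%) were lower. The intervals of histidine (0.993% and 0.943%) and glutamine (0.489% and 0.539%) included 0. In the stretch between the V and J ends alone, glycine was 20.05% and 20.01%, with an interval that included 0. Alanine (2.63% and 3.29%) and phenylalanine (1.09% and 1.36%) were lower there in the iB-μMT mouse, and so were serine, valine and proline. The widest ratio was that of cysteine, 0.137% against 0.371% of loop residues. Between the V and J ends alone cysteine was 0.274% and 0.305%, and the interval of that difference included 0. A cysteine was present in the loop of 121 clonotypes (1.56%) in the iB-μMT mouse versus 266 (4.01%) in the B6 mouse, and a pair of cysteines, which can form a disulfide bond within the loop, in 1 and 9 clonotypes.

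**Figure D1:**
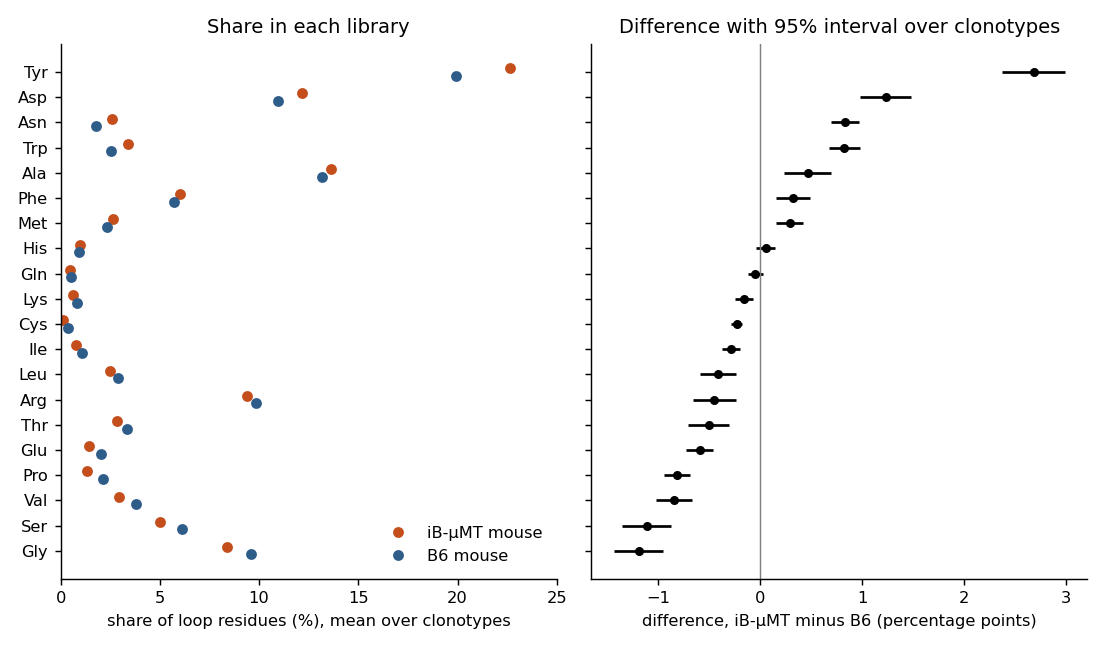
Left, the mean share of each amino acid among loop residues (%) in each mouse. Right, the difference in percentage points, where points are the iB-μMT mouse minus the B6 mouse and bars are 95% intervals over clonotypes. Tyrosine had the widest difference above 0 (2.68) and glycine the widest below 0 (-1.20).

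By the assigned ends, the higher number of tyrosines lay in the parts of the loop counted as V or J. The J part includes assigned P nucleotides and bases that D and J both hold. Tyrosine codons of D can therefore be counted in it, and the split under another assignment was not tested. The loop held 2.69 ± 1.39 tyrosines (SD) in the iB-μMT mouse versus 2.44 ± 1.35 in the B6 mouse. Of these, 1.81 ± 0.934 and 1.53 ± 0.831 lay outside the stretch between the V and J ends, a difference of 0.28 (95% interval 0.25 to 0.31). Between the V and J ends there were 0.877 ± 1.05 and 0.915 ± 1.07 tyrosines, and that stretch was shorter in the iB-μMT mouse, 5.01 ± 2.04 against 5.84 ± 2.31 residues. As a share of the residues in that stretch, tyrosine was 15.4% in the iB-μMT mouse versus 13.9% in the B6 mouse, a difference of 1.51 percentage points. Within equal numbers of inserted nucleotides the difference in loop tyrosine was 1.46 percentage points. By number, from 0 to 12 inserted nucleotides, it ran from -0.04 with 11 to 2.91 with 2, and was 2.15 with none. It was also present within CDR3 lengths. Of 14 lengths with at least 20 clonotypes in each library, from 7 to 20 residues, tyrosine was higher in the iB-μMT mouse in 13, by up to 4.91 percentage points at 17 residues, and was 0.33 lower at 7 residues.

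Loops of the iB-μMT mouse held a lower share of positively charged residues and a higher share of negatively charged ones. Arginine and lysine together made up 10.1% of loop residues in the iB-μMT mouse versus 10.7% in the B6 mouse. Aspartate and glutamate together made up 13.6% and 12.99%, with aspartate higher and glutamate lower in the iB-μMT mouse. Between the V and J ends alone, arginine and lysine were 6.92% and 8.93%, and aspartate and glutamate 16.3% and 13.49%. Net charge, counted as arginine and lysine minus aspartate and glutamate, was -0.42 ± 1.18 (SD) in the iB-μMT mouse versus -0.29 ± 1.24 in the B6 mouse, a difference of -0.13 (95% interval -0.17 to -0.09). A net charge of at least +2 was found in 317 clonotypes (4.10%) and 397 clonotypes (5.99%), respectively. Between the V and J ends, at least 1 arginine or lysine was present in 28.0% of clonotypes in the iB-μMT mouse versus 38.8% in the B6 mouse. At least 2 were present in 4.52% and 8.46%, a difference of -3.94 percentage points (95% interval -4.76 to -3.13). Arginine in CDR3 is known as a frequent feature of antibodies that bind DNA. Loops were also less hydrophobic in the iB-μMT mouse on the Kyte-Doolittle scale, -0.79 ± 0.56 against -0.70 ± 0.60, and averaged within V genes the difference of -0.08 was -0.05. A mean above 0, a hydrophobic loop, was found in 8.45% and 11.9% of clonotypes.

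The largest differences among D genes were those of IGHD1-1 and IGHD4-1. A D hit was present in 6787 clonotypes of the iB-μMT mouse versus 5948 of the B6 mouse, and D shares are over these. IGHD4-1, the D gene next to the J genes, was found in 1272 clonotypes (18.7%) of the iB-μMT mouse versus 581 (9.77%) of the B6 mouse, a difference of 8.97 percentage points (95% interval 7.77 to 10.2). IGHD1-1, which lies far from the J genes and is the longest of the common D genes, was found in 1509 (22.2%) and 2030 (34.1%), a difference of -11.9 percentage points (95% interval -13.5 to -10.3). IGHD2-3 was higher in the iB-μMT mouse (16.1% against 11.3%), as was IGHD2-8 (8.16% against 5.35%).

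The other IGHD2 genes lay close together in both mice. IGHD2-4 had 13.8% and 14.7%, IGHD2-5 had 6.93% and 7.15%, and IGHD2-7 had 5.17% and 5.55% for iB-μMT and B6, and each interval of the difference included 0. IGHD3-2 (3.64% and 4.81%), IGHD3-1 (2.21% and 2.76%) and IGHD5-7 (1.27% and 2.29%) were lower in the iB-μMT mouse. These shares keep hits that lie only in the reverse complement by which MiXCR extends D. Such hits were 43.0% and 61.0% of those of IGHD5-7, 12.7% and 17.7% for IGHD3-1, and 5.26% and 7.69% for IGHD3-2. The D shares without such hits were not compared. The rare IGHD5-1 (47 and 51 clonotypes), IGHD5-2 (13 and 21), IGHD5-5 (23 and 28) and IGHD6-2 (32 and 25) could not be told apart at these numbers. Of the 14 D genes with at least 20 clonotypes together, 3 had an interval above 0 and 4 below 0. A best D hit was tied with another D gene in 17.2% and 20.1% of clonotypes with a D hit. With at least 8 nucleotides of D and a unique hit, IGHD1-1 was 31.2% and 45.2%, and IGHD4-1 was 13.2% and 6.03%.

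The tyrosine frame was used by 4027 of 5001 clonotypes with an IGHD1, IGHD2 or IGHD3 gene (80.5%) in the iB-μMT mouse versus 3453 of 4634 (74.5%) in the B6 mouse. The difference of 6.01 percentage points (95% interval 4.34 to 7.68) was 4.18 when averaged within D genes. In IGHD1-1 clonotypes the tyrosine frame had 79.3% and 70.6%. The other frame of IGHD1-1 without a stop codon had 15.8% and 24.7%. Of the 8 D genes with a tyrosine frame, 7 had a share that was higher for the iB-μMT mouse, but the interval lay above 0 for IGHD1-1 alone. The share was highest for IGHD2-8, 95.7% and 95.5%, and among the lowest for IGHD3-2, with 120 of 228 and 128 of 256 clonotypes.

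**Figure D2:**
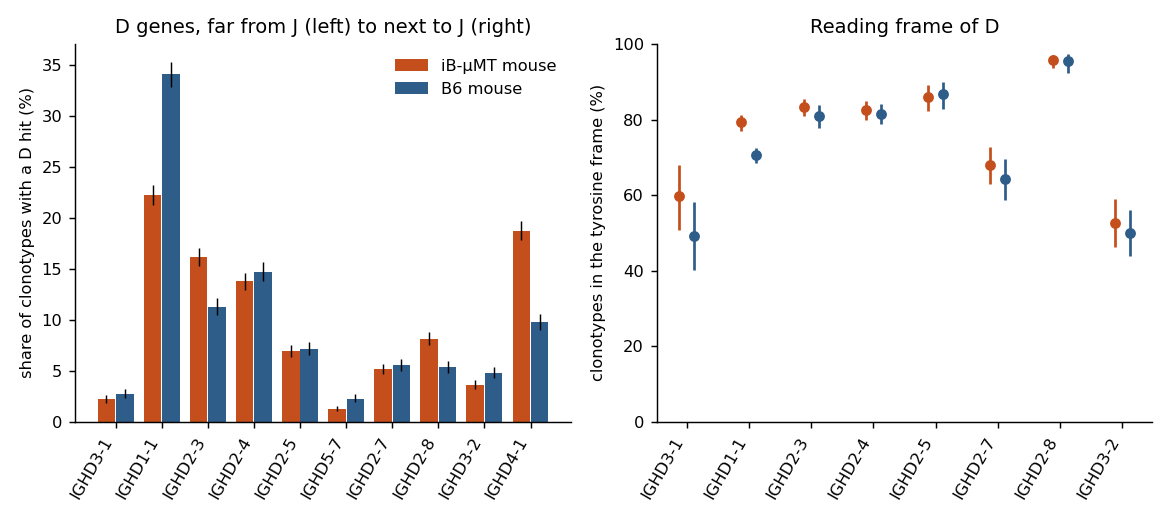
Left, the share of clonotypes with a D hit (%) for D genes with at least 100 clonotypes together, from far from J to next to J, with bars for each mouse and 95% Wilson intervals. Right, the share of clonotypes of each D gene read in the tyrosine frame (%), with the same intervals; IGHD1-1 had 79.3% in the iB-μMT mouse versus 70.6% in the B6 mouse.

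The D-J pairs followed their D genes, with IGHD4-1 leading the higher pairs. Of 37 D-J pairs with at least 50 clonotypes together, 8 had a share at least 1.5-fold higher in the iB-μMT mouse (21.6% of pairs) and 8 a share at least 1.5-fold lower (21.6%). The 3 highest ratios were those of IGHD4-1 with IGHJ3 (4.30% against 1.85%, ratio 2.33), IGHJ1 (2.83% against 1.23%, ratio 2.31) and IGHJ2 (8.66% against 4.19%, ratio 2.07). With IGHJ4, the J gene farthest from the D cluster, IGHD4-1 had 2.95% and 2.51%, a ratio of 1.18 whose interval of the difference included 0. Free pairing of the D and J genes of the iB-μMT mouse would give more of this pair, and the share found was 0.534 times that product, against 0.944 times in the B6 mouse.

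The 3 lowest ratios were those of IGHD3-1 with IGHJ3 (21 and 37 clonotypes, ratio 0.497), IGHD1-1 with IGHJ1 (4.32% against 8.14%, ratio 0.531) and IGHD3-2 with IGHJ2 (68 and 106 clonotypes, ratio 0.562). IGHD1-1 with IGHJ1 was nevertheless above its free pairing in both mice, 1.38 and 1.43 times. With IGHJ1, IGHD2-8 had a ratio of 0.662, against 1.63, 1.71 and 1.69 with IGHJ2, IGHJ3 and IGHJ4. The interval of the difference for IGHD2-8 with IGHJ1 (34 and 45 clonotypes) included 0.

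**Figure D3:**
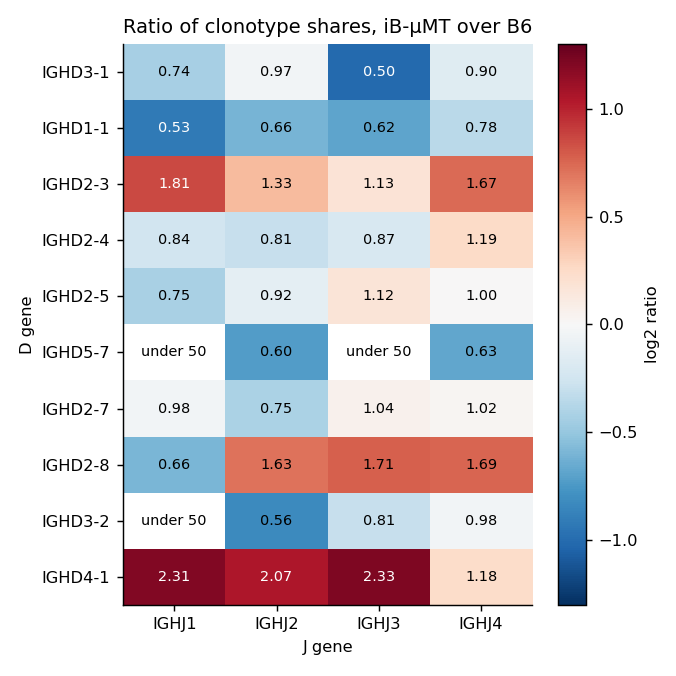
The ratio of the share of clonotypes in the iB-μMT mouse over that in the B6 mouse for each D-J pair with at least 50 clonotypes together. Colour is the log2 ratio, and the printed value is the ratio, which ran from 0.497 for IGHD3-1 with IGHJ3 to 2.33 for IGHD4-1 with IGHJ3.

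The V-D-J combinations were spread thinly. Of 5760 combinations of the V, D and J genes seen in the iB-μMT mouse, 1961 were found (34.0%), and 1952 of 6180 (31.6%) in the B6 mouse. Of these, 1282 were found in both mice, which is 65.4% of those of the iB-μMT mouse, or 65.7% of those of the B6 mouse, and they held 82.4% and 80.5% of the clonotypes. A single clonotype was behind 827 and 844 combinations. The 50 most frequent combinations held 21.5% of clonotypes in the iB-μMT mouse versus 15.2% in the B6 mouse.

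The most frequent combinations of the iB-μMT mouse were built on IGHV5-4, a V gene of the IGHV5 family, which lies near the D genes. IGHV5-4 IGHD4-1 IGHJ2 had 87 clonotypes in the iB-μMT mouse versus 5 in the B6 mouse. IGHV5-4 IGHD2-3 IGHJ2 had 55 and 12. IGHV5-4 had 50 clonotypes each with IGHD4-1 IGHJ3, IGHD2-4 IGHJ3 and IGHD1-1 IGHJ2, against 4, 9 and 30 in the B6 mouse. The 87 clonotypes of the first combination coded for 87 different CDR3 amino acid sequences and held 0.816% of the reads.

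In the B6 mouse the most frequent combination was IGHV1-64 IGHD1-1 IGHJ2 with 31 clonotypes, against 12 in the iB-μMT mouse. It was followed by IGHV5-4 IGHD1-1 IGHJ2 (30 against 50), IGHV1-26 IGHD1-1 IGHJ2 (28 against 7), IGHV1-26 IGHD1-1 IGHJ1 (27 against 7) and IGHV1-64 IGHD1-1 IGHJ3 (26 against 5). All 5 used IGHD1-1.

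Of 101 combinations with at least 20 clonotypes together, 45 had a share at least 2-fold higher in the iB-μMT mouse (44.6%) and 23 a share at least 2-fold lower (22.8%). A combination could pass this minimum through 1 library alone, as with 25 clonotypes against 1. The numbers by direction, V family and D gene therefore depend in part on the minimum. With at least 8 nucleotides of D and a unique D hit, 59 combinations remained above that number, of which 23 were higher and 16 lower. By V family, 34 of the 45 higher combinations used an IGHV5 gene, against 43 of all 101, and 19 of the 23 lower ones an IGHV1 gene, against 23 of all 101. IGHD1-1 was in 22 of the 23 lower combinations, in 7 of the 45 higher ones and in 48 of all 101. IGHD4-1 was in 12 of the 45 higher combinations and 14 of all 101, and IGHD2-3 in 10 and 15.

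The 5 highest ratios rested on few clonotypes of the B6 mouse. IGHV5-4 IGHD2-5 IGHJ4 had 25 clonotypes against 1, IGHV5-4 IGHD2-3 IGHJ4 had 46 against 2, IGHV5-4 IGHD2-8 IGHJ3 had 22 against 1, IGHV5-6 IGHD2-3 IGHJ4 had 20 against 1, and IGHV5-4 IGHD4-1 IGHJ2 had 87 against 5 (ratio of shares 15.2). The first 4 of these ratios rest on 1 or 2 clonotypes and are not printed. The 5 lowest ratios were those of IGHV1-64 IGHD1-1 IGHJ3 (5 against 26), IGHV1-62-3 IGHD1-1 IGHJ2 (6 against 25), IGHV1-52 IGHD1-1 IGHJ3 (4 against 16), IGHV1-26 IGHD1-1 IGHJ2 (7 against 28) and IGHV1-26 IGHD1-1 IGHJ1 (7 against 27).

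By the assigned ends, less was trimmed at V 3′, D 5′ and J 5′ in the iB-μMT mouse. The largest difference was at J. At the D 3′ end the direction depended on whether D genes were held equal. MiXCR gives for each joint the number of nucleotides missing from a segment end, and P nucleotides were counted as 0 removed. The J 5′ end had lost 2.27 ± 2.71 (SD) nucleotides in the iB-μMT mouse versus 3.21 ± 3.34 in the B6 mouse, a difference of -0.93 (95% interval -1.03 to -0.84). No J base was counted as removed in 42.3% and 33.4% of clonotypes, and at least 5 were in 19.5% and 30.6%. Those with none removed include the clonotypes with assigned P nucleotides at J, and 11.8% and 9.28% had neither trimming nor P nucleotides. Some of these P nucleotides can be D bases beside a trimmed J. Without clonotypes with more than 2 P nucleotides at a D or J end, the J means were 2.67 and 3.64. Where no nucleotide was inserted between D and J, the J end had lost 1.77 and 1.82 nucleotides, and the interval of that difference included 0, while with at least 1 inserted it had lost 3.10 and 3.78. For each J gene the mean was lower in the iB-μMT mouse, with an interval below 0. IGHJ1 had lost 1.45 ± 2.00 and 2.30 ± 2.83 nucleotides, IGHJ2 2.27 ± 3.08 and 3.17 ± 3.56, and IGHJ3 2.29 ± 2.55 and 2.81 ± 2.92. IGHJ4 had the widest difference, 2.65 ± 2.58 against 4.15 ± 3.47. The first bases of IGHJ1, IGHJ2 and IGHJ4, but not of IGHJ3, hold tyrosine codons in the frame of the conserved tryptophan, as the sequences above show.

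The D 5′ end had lost 3.75 ± 3.09 nucleotides in the iB-μMT mouse versus 4.24 ± 3.26 in the B6 mouse, a difference of -0.49 (95% interval -0.60 to -0.37). Of 9 D genes with 50 or more clonotypes per library, 6 were trimmed less in the iB-μMT mouse, and 5 of them had an interval below 0: IGHD1-1 (4.03 against 4.49), IGHD2-3 (3.71 against 4.196), IGHD2-4 (4.11 against 4.73), IGHD2-8 (3.85 against 4.33) and IGHD4-1 (2.63 against 3.13). IGHD2-5, IGHD3-1 and IGHD3-2 were trimmed more in the iB-μMT mouse, with intervals that included 0.

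Over all clonotypes 3.28 ± 3.67 nucleotides were removed from the D 3′ end in the iB-μMT mouse versus 3.55 ± 4.05 in the B6 mouse, a difference of -0.27 (95% interval -0.41 to -0.13). Within D genes the means were higher in the iB-μMT mouse for 8 of 9, and averaged within D genes they were 3.51 and 3.21. D bases that J also holds, or that were assigned as P nucleotides of J, can count here as removed from D. Joints without insertion, where this can occur, were 52.3% and 27.4% of clonotypes with a D hit. The differences within D genes therefore hold for the assigned ends and are not a direct measure of trimming. For IGHD2-8, 2.72 ± 1.91 and 1.795 ± 1.78 nucleotides were counted as removed, and for IGHD2-3 3.58 ± 3.01 and 2.804 ± 2.801. With IGHD2-4 these were the 3 genes with an interval above 0, and IGHD3-1 alone had one below 0. IGHD1-1, the D gene more frequent in the B6 mouse, had the highest mean in both, 5.75 ± 4.16 and 5.56 ± 4.04. This mean includes joints whose D 3′ end can be read as intact. Among them is the joint counted as 9 bases removed with 5 P nucleotides of IGHJ1, found in 135 and 175 clonotypes. Where at least 1 nucleotide was inserted between D and J, the means were 2.21 and 2.99, and where none was inserted they were 4.17 and 4.90.

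The V 3′ end was intact in 73.2% of clonotypes of the iB-μMT mouse versus 70.4% of the B6 mouse, and 0.589 ± 1.22 and 0.693 ± 1.36 nucleotides were removed. The difference was -0.10 (95% interval -0.15 to -0.06), and weighted by reads it was -0.04. Among 40 V genes with 50 or more clonotypes per library, 24 were trimmed less in the iB-μMT mouse while 16 were trimmed more, with 5 intervals below 0. The widest differences below 0 were those of IGHV6-6 (0.776 against 1.88 nucleotides), IGHV14-4 (1.14 against 1.54, interval including 0) and IGHV5-9-1 (0.0759 against 0.467). The widest above 0, IGHV1-5 (1.34 against 0.833), IGHV1-69 (0.534 against 0.282) and IGHV14-3 (1.15 against 0.98), had intervals that included 0.

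**Figure D4:**
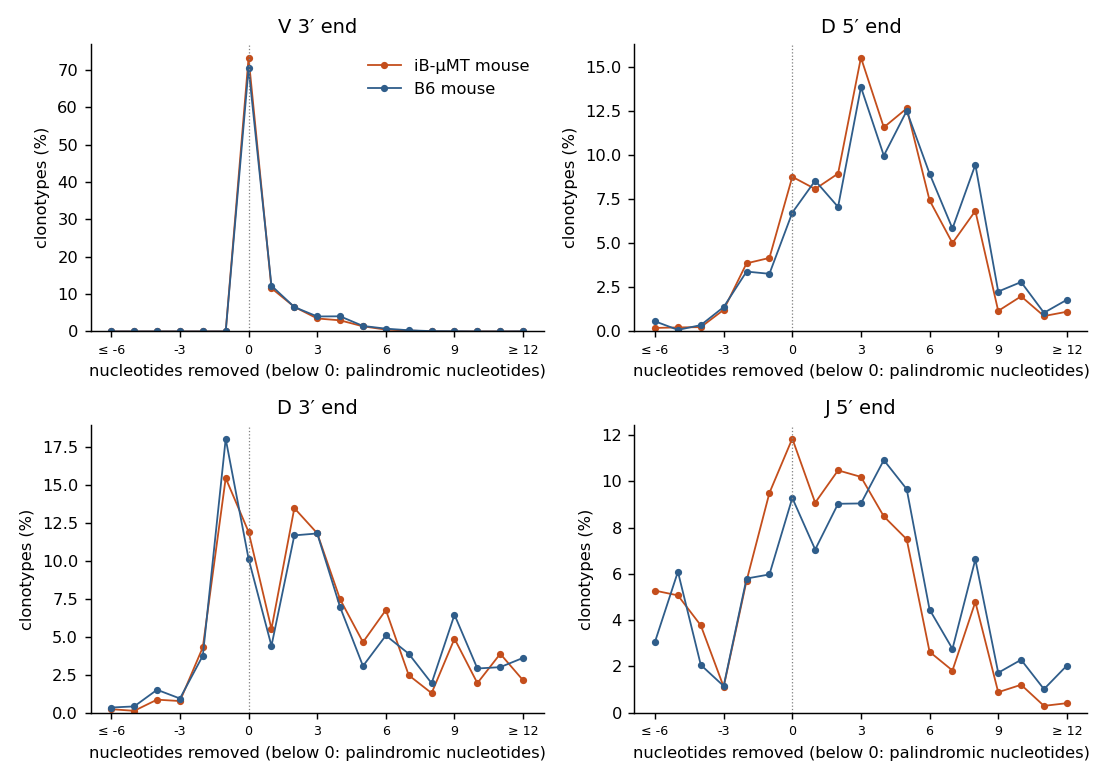
The share of clonotypes (%) by the number of nucleotides removed at the V 3′, D 5′, D 3′ and J 5′ ends, with P nucleotides below 0 and the outermost points pooling 6 or more P nucleotides and 12 or more removed. At J the iB-μMT mouse had higher shares from 0 to 3 removed and lower shares from 4 on, and at least 5 nucleotides were removed in 19.5% and 30.6% of clonotypes.

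P nucleotides were assigned at the J end in 30.4% of clonotypes of the iB-μMT mouse versus 24.1% of the B6 mouse, at the D 3′ end in 21.8% and 25.01%, and at the D 5′ end in 9.94% and 9.08%. Long runs at J cannot be told apart from D bases. More than 2 P nucleotides at J were assigned in 15.2% and 12.4% of clonotypes, and the reverse complement of the first 5 bases of IGHJ1, agtag, lies within IGHD1-1. The joint of IGHD1-1 less 9 bases with IGHJ1 plus 5 such bases was found in 135 and 175 clonotypes. Read with those 5 bases as part of D, it holds the D 3′ end intact.

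The base composition of inserted nucleotides gave a difference whose interval included 0. G and C made up 68.1% ± 26.4 (SD over clonotypes) of inserted nucleotides in the iB-μMT mouse versus 68.6% ± 22.9 in the B6 mouse, a difference of -0.48 percentage points (95% interval -1.36 to 0.41). TdT is known to add G and C more readily than A and T. G alone made up 46.9% and 47.1% of the bases between V and D, and 40.5% and 38.9% of those between D and J. The numbers differed most between D and J, where 54.1% of clonotypes in the iB-μMT mouse versus 28.8% in the B6 mouse had no insertion, a difference of 25.2 percentage points (95% interval 23.6 to 26.9). Between V and D the shares were 16.5% and 11.3%.

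D-J joints without insertion that had the same D gene, D end, J gene and J end were found in many clonotypes of both mice. There were 3550 joints without insertion in the iB-μMT mouse (52.3% of clonotypes with a D hit) and 1630 in the B6 mouse (27.4%), a ratio of 1.91. They fell on 817 and 616 distinct joints, numbers that depend on how many joints were drawn. Of 23 distinct joints with at least 40 clonotypes together, 22 had a higher share of clonotypes with a D hit in the iB-μMT mouse, to be read against the ratio of 1.91 over all such joints. As a share of the joints without insertion, 17 of the 23 were higher in the iB-μMT mouse and 6 lower, with 12 intervals above 0 and 3 below. The 3 below were joints of IGHD1-1 with P nucleotides of IGHJ1 or IGHJ2, among them the joint with 5 P nucleotides of IGHJ1 given above. The minimum of 40 clonotypes together favours joints frequent in the iB-μMT mouse, which gave more of the joints without insertion. The numbers higher and lower therefore depend in part on that minimum.

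Of these 23 joints, 12 were made of germline bases alone, without P nucleotides. The 6 with the most clonotypes are shown because their D and J ends overlap. Capitals mark bases that both the D and the J segment hold at the joint, so that either could have given them.
IGHD1-1 less 3 bases with IGHJ4: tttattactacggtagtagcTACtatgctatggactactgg
IGHD2-4 with IGHJ4: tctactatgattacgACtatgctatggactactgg
IGHD2-8 with IGHJ4: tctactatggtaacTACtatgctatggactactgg
IGHD1-1 less 4 bases with IGHJ4: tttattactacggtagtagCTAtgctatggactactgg
IGHD2-3 with IGHJ1: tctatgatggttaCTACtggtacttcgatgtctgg
IGHD2-8 with IGHJ2: tctactatggtaACTACtttgactactgg
In this order they were found in 77, 69, 68, 65, 62 and 59 clonotypes of the iB-μMT mouse, and in 25, 14, 15, 17, 17 and 7 of the B6 mouse. They stood with 30 to 40 V genes each in the iB-μMT mouse. As a share of the joints without insertion, the interval of the difference lay above 0 for 4 of the 6 and included 0 for the first and the fifth. Of all 12, 10 were higher in the iB-μMT mouse on that scale, 7 with an interval above 0, and the 2 lower ones, of IGHD2-4 with IGHJ1 (38 and 19 clonotypes) and IGHJ2 (29 and 16), had intervals that included 0. These numbers have the same limit as those of the 23 joints.

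Over all D-J joints with neither insertion nor P nucleotides, at least 2 shared bases were present in 1091 of 1893 (57.6%) in the iB-μMT mouse versus 292 of 690 (42.3%) in the B6 mouse. These shares differed by 15.3 percentage points (95% interval 10.97 to 19.6). As a share of all clonotypes with a D hit these joints were 16.1% and 4.91%. Of the 3550 and 1630 joints without insertion, 1893 and 690 entered, since joints with assigned P nucleotides were left out. Among those left out was the joint of IGHD1-1 less 9 bases with IGHJ1 (135 and 175 clonotypes). Read with its P nucleotides as D bases, that joint also has shared bases. The shares under that reading were not computed, so the difference holds for the assignment used. The recurrence and the shared bases were chosen for description after the joints had been seen.

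Clone sizes had a similar overall spread, with a longer upper tail in the iB-μMT mouse. The Gini index of reads over clonotypes, which is 0 when all clonotypes have equal reads, was 0.429 in the iB-μMT mouse versus 0.428 in the B6 mouse, and 0.425 in the iB-μMT mouse without its largest clonotype. At least 4 times the library's median reads were found for 149 clonotypes (1.91%) in the iB-μMT mouse versus 33 (0.487%) in the B6 mouse, a difference of 1.43 percentage points (95% interval 1.08 to 1.78). At 10 times the median the numbers were 1 and 0. The lower tail was longer in the B6 mouse, where 14.6% of clonotypes had at most 0.1 times the median reads, against 8.39%. Reads of the largest 1% of clonotypes were 5.26% and 3.89% of all reads, and those of the largest 10% were 28.1% and 25.7%.

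The 149 large clonotypes of the iB-μMT mouse had fewer inserted nucleotides than all its clonotypes. No nucleotide was inserted in 30 of the 123 with a D hit (24.4%), against 8.77% of all clonotypes with a D hit in that library, and they had 2.59 inserted nucleotides against 4.32. The median in this mouse was 118 reads without insertion, 101 with 1 to 4, 84 with 5 to 9 and 77 with at least 10. In the B6 mouse the medians were 191.5, 197, 182.5 and 159. Reads per clonotype also moved with the V family in both mice. Relative to the library median, IGHV5 clonotypes had 0.646 and 0.478 times the reads, IGHV1 clonotypes 1.39 and 1.16 times, and IGHV2 clonotypes 1.55 and 1.51 times. The part of the number of cells, RNA per cell and amplification in these reads was not tested.

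**Figure D5:**
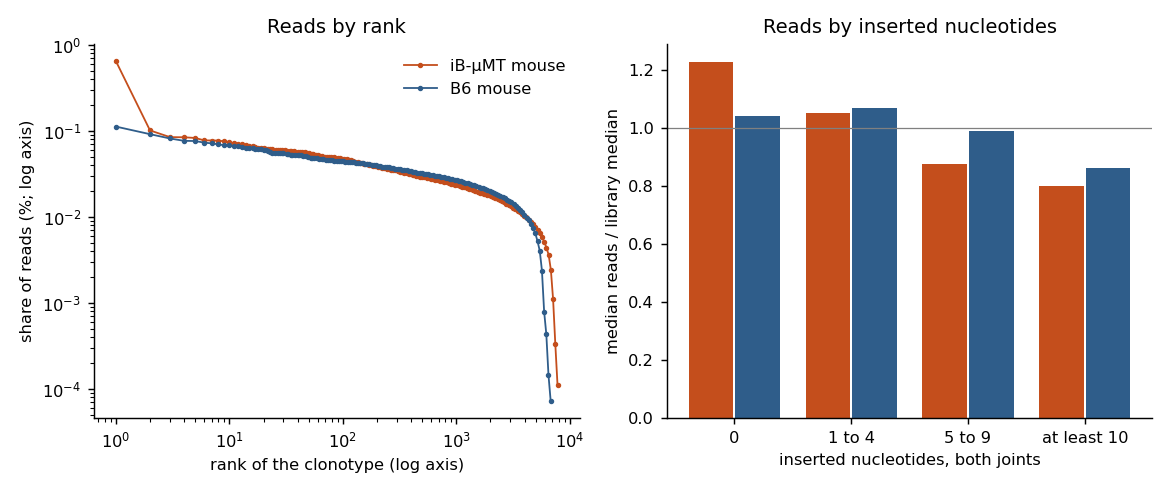
Left, the share of reads (%) against the rank of the clonotype, both on log axes, in each mouse. Right, the median reads of clonotypes by inserted nucleotides, divided by the median of the library. The largest clonotype of the iB-μMT mouse had 0.652% of the reads and stood apart from the second with 0.102%.

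The 5 clonotypes with the most reads in each mouse are given by their CDR3, with bases aligned to D in capitals.
iB-μMT 1: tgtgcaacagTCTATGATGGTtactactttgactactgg
iB-μMT 2: tgtgcaagaTGGTTACTAgactactgg
iB-μMT 3: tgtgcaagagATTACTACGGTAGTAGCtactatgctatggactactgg
iB-μMT 4: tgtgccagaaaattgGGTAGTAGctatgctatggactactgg
iB-μMT 5: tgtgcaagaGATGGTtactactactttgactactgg
B6 1: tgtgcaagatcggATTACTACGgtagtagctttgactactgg
B6 2: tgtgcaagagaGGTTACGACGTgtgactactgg
B6 3: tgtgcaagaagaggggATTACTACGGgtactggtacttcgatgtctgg
B6 4: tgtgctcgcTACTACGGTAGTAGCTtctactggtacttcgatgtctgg
B6 5: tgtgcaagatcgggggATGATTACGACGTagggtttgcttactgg
The largest clonotype of the iB-μMT mouse joined IGHV3-6, IGHD2-3 and IGHJ2 without inserted nucleotides. It had 5930 reads, 61.8 times the library median and 6.42 times the second clonotype. The second, of IGHV1-62-3, IGHD2-3 and IGHJ2, had 924 reads and also no inserted nucleotide, as had the fifth, of IGHV1-52, IGHD2-3 and IGHJ2, with 755. The third (IGHV1-53, IGHD1-1, IGHJ4) had 772 reads and 1 inserted nucleotide, and the fourth (IGHV2-2, IGHD1-1, IGHJ4) had 769 reads and 4. In the B6 mouse the 5 had from 1558 to 1058 reads and from 2 to 9 inserted nucleotides. They joined IGHV1-49, IGHD1-1 and IGHJ2, then IGHV1-26, IGHD2-7 and IGHJ2, IGHV1-52, IGHD1-1 and IGHJ1, IGHV8-8, IGHD1-1 and IGHJ1, and IGHV1-26, IGHD2-4 and IGHJ3. The first had 1.23 times the reads of the second.

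Few CDR3 sequences were found in both mice. Of the distinct CDR3 amino acid sequences of clonotypes without a stop codon, 179 were found in both, which is 2.40% of 7462 in the iB-μMT mouse, or 2.72% of 6580 in the B6 mouse. With at least 2 reads required in each library there were 147. Their clonotypes had fewer inserted nucleotides than the rest, 2.91 against 4.34 in the iB-μMT mouse versus 3.34 against 6.44 in the B6 mouse. They were also shorter, 12.2 against 13.6 and 12.1 against 14.01 residues.

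Of the 34 clonotypes with the same nucleotides, V gene and J gene in both mice, 26 had a single read in at least 1 library. At least 10 reads in each were found for 6. The 5 with the largest product of read fractions are shown, with D in capitals.
IGHV1-26 with IGHJ1: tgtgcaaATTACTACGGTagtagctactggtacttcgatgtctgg
IGHV8-12 with IGHJ1: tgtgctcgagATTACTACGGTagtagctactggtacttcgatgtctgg
IGHV5-6 with IGHD1-1 and IGHJ2: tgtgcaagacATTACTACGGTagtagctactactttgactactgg
IGHV5-6 with IGHJ2: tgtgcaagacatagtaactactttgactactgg
IGHV5-4 with IGHJ3: tgtgcaagagaTCGGGggtttgcttactgg
The first had 249 reads in the iB-μMT mouse versus 178 in the B6 mouse, and the second had 103 and 409. The third had 137 and 64, the fourth, which had no D hit, 140 and 56, and the fifth 96 and 53. The 4 with a D hit had 0, 1, 1 and 2 inserted nucleotides. The median was 1 for those with at least 10 reads in each library and 5 for those with a single read in at least 1. Carry-over of reads between the libraries was not tested.

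Different nucleotide sequences for the same amino acid sequence were more frequent in the iB-μMT mouse, with 245 of 7462 amino acid sequences (3.28%) coded by more than 1 clonotype, against 50 of 6580 (0.76%) in the B6 mouse. The amino acid sequences with the most nucleotide forms over both mice are shown by the form with the most reads.
5 forms, IGHJ2: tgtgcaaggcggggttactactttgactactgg
4 forms, IGHD1-1 and IGHJ2: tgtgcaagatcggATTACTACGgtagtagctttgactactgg
4 forms, short, IGHJ2: tgtgcaagaggggactactgg
4 forms, IGHJ3: tgtgcaagaggggggtttgcttactgg
4 forms, other IGHJ2: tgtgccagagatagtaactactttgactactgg
The first was found in 4 clonotypes of the iB-μMT mouse versus 1 of the B6 mouse. The second, in 2 and 2 clonotypes with 4 V genes, includes the largest clonotype of the B6 mouse. The third and the fourth were found in 3 and 2 clonotypes each, and the fifth in 2 and 2. Of these 5 amino acid sequences, the 4 other than the second came from clonotypes without a D hit, and all were 7 to 14 residues long.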

How the data were processed

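The heavy chain libraries of 1 iB-μMT mouse (week 4) and 1 B6 mouse were analysed. Total RNA was amplified by 5′ RACE and sequenced on an Illumina MiSeq, and bcl2fastq and the build mm10 are named in the submitters' processing notes. The authors assembled clonotypes with MiXCR and deposited, for each, a count of reads, which was used without normalization, and the positions and trimming of V, D and J ends. Best hits were used. MiXCR extends D and J by their reverse complements, and D hits lying only in such an extension (3.96% of D hits for iB-μMT, 6.51% for B6) were left out of D trimming and frames. D hits had at least 5 nucleotides, and clonotypes without a D hit have no count of inserted nucleotides. Such clonotypes can still hold D bases, and not only short remnants. The fourth shared clonotype, without a D hit, holds atagtaactac, which lies within IGHD2-5. D shares and shares without insertion therefore cover clonotypes with a D hit only. Depth was 909806 and 1383617 reads, of which 3 reads are 0.00033% and 0.000217%. The precision is set by the number of clonotypes.

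Each clonotype was counted once. Shares have Wilson intervals, their differences Newcombe intervals, and means normal intervals, all at 95%. With 1 library per group there was no test. The groups came from the sample labels. The clonotypes, gene lists and measures were chosen with earlier results of these data known. Named were D genes with at least 20 clonotypes, every J gene and amino acid, the most frequent and most different D-J pairs (at least 50 clonotypes) and V-D-J combinations (at least 20), the V genes with the 3 widest trimming differences in each direction, and the 5 largest, shared and convergent clonotypes. The alternatives were read minimums of 2 and 5, equal read numbers, merging of near-identical clonotypes, leaving out shared clonotypes, weighting by reads, stop codons kept or left out, unique V or D hits, and averages within CDR3 lengths or genes. Another 11 were added after seeing the data. Parsing and intervals were tested on simulated clonotypes. Python 3.11.15, NumPy 2.4.6, pandas 2.3.3 and matplotlib 3.10.9 were used.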

Additional observations from a re-analysis of the deposited data

How the results depend on the processing

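No paired analysis was possible because each mouse gave 1 heavy chain library, so no replicate could be left out either. Of 138 alternatives, 120 kept the difference within its 95% interval or the count within 1.5 times, 17 moved it beyond that with the same sign, 11 to a smaller and 6 to a larger value, and 1 turned the sign. Averaged within D genes, D 3′ trimming by the assigned ends was 0.30 nucleotides higher in the iB-μMT mouse in place of 0.27 lower. The share of the tyrosine frame then differed by 4.18 percentage points and D 5′ trimming by -0.35 nucleotides. With D hits in the palindromic extension kept, the differences were -0.36 (D 5′) and -0.94 (D 3′), and with at least 1 nucleotide inserted between D and J they were -0.78 (D 3′) and -0.70 (J 5′). Between the V and J ends alone, tyrosine differed by 1.51 percentage points, net charge by -0.17 and hydropathy by -0.17. Tyrosine differed by 3.06 within CDR3 lengths and by 1.46 within numbers of inserted nucleotides, and hydropathy by -0.0482 within V genes. With at least 8 nucleotides of D and a unique D hit, IGHD1-1 differed by -14.0 and IGHD4-1 by 7.13 percentage points, and 39 V-D-J combinations passed 2-fold in place of 68. Weighted by reads, V 3′ trimming differed by -0.0386 nucleotides. At 10 times the median reads, the share of large clonotypes differed by 0.0128 percentage points. Apart from the averages within D genes, whose construction holds the D genes equal, the causes were not tested. The numbers of clonotypes limit rare D genes and combinations.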

Other observations

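The shares of IGHD1-1, IGHD4-1 and IGHD2-3 were compared within V families. In 9 V families with at least 100 clonotypes with a D hit in each library, the share of IGHD4-1 was higher in the iB-μMT mouse in 9 and the share of IGHD1-1 lower in 9, with intervals that excluded 0 in 7 and 6 families. In IGHV8 clonotypes IGHD4-1 had 22.7% against 7.43%, in IGHV5 clonotypes 19.2% against 8.84%, and in IGHV1 clonotypes 17.98% against 9.80%. IGHD1-1 had 16.2% against 32.1% in IGHV6 clonotypes and 23.5% against 34.9% in IGHV1 clonotypes. IGHD2-3 was higher in the iB-μMT mouse in 8 of the 9 families, with intervals that excluded 0 in 2.

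Clonotypes with a stop codon had few reads. The 53 of the iB-μMT mouse had a median of 34 reads, 0.354 times that of the library, and the 150 of the B6 mouse had a median of 7, 0.038 times that of the library. A single read was behind 17 and 37 of them.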
